A study of Mus musculus with 8 samples.

Results

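The collagen genes of the mouse pancreatic bud were taken as the probe sets that carry exactly 1 gene symbol and whose symbol is Col, digits, the letter a and digits. That gave 46 probe sets for 44 genes among 19938 genes measured by a singly named probe set. Col6a5 and Col6a6 had more than 1 probe set, and the brighter of these on average stood for the gene. The members were split by the form of the assembled protein into 11 fibrillar, 9 network and 24 other collagens.

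Collagens are secreted proteins in which chains wind into a helix built on repeats of glycine. Fibrillar collagens such as types I and III form the fibres of mesenchyme and give tissue its strength, and the network collagens of type IV form the sheet of the basement membrane under epithelium and around blood vessels. In the early pancreas the branching epithelium lies in mesenchyme that makes much of this matrix, and the vessels within it have basement membranes of their own.

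The study hybridized RNA of 4 pools to the Affymetrix mouse gene array, version 1.0 ST. The VEGF pool came from buds of 3 embryos at e12.5 that carried Pdx1-tTA, in which the Pdx1 promoter of the bud epithelium drives a transactivator, together with TET-VEGF, the VEGF transgene that responds to it. The control pool came from 3 littermates that carried Pdx1-tTA without the transgene. For the other two, wild type buds were taken into culture at e12.5, and 5 were kept for 2 days with VEGFR2i, by its name an inhibitor of a VEGF receptor, and 5 with vehicle. Each pool was hybridized to 2 arrays, the repeat being technical, so a condition is 1 biological sample. No test of a condition was possible, and every SD below (n = 2 arrays) measures hybridization error.

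Values are log2 expression, and differences are between pool means, with the lowest and highest of the 4 array pairs in square brackets. The size rule called a gene when its pool means were 1.5-fold apart or more (0.58 in log2 units) and no array of the lower pool reached an array of the higher. Levels of different genes are not ranked, since probe sets differ in how brightly they hybridize. Between the 2 arrays of a pool no collagen differed by that size, and the largest such gap was 0.37, for Col20a1 in the VEGFR2i pool. Of the bud markers, Pdx1 read 6.38 in VEGF, 6.96 in control and 8.43 in both explant pools. Ptf1a, a factor of acinar and progenitor cells, read 3.88 and 3.96 in VEGF and control, below the array medians, and 6.75 and 7.33 in VEGFR2i and vehicle. The explant labels did not match the vessel genes: all 10 endothelial markers were higher in the pool labelled VEGFR2i than in the pool labelled vehicle. Directions for the explants follow the labels as they stand, and none can be read as the effect of the inhibitor.

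Few collagens differed by the size rule, and the chains of types I and III differed by at most 0.14. Between the VEGF and control pools, 3 of 44 collagens (6.82%) were called, Col4a2, Col12a1 and Col15a1, and all were higher in the VEGF pool. Over all genes 1.48% were called in either direction and 0.552% as higher in VEGF. Between the pools labelled VEGFR2i and vehicle, 3 of 44 were again called (6.82%), Col4a1, Col4a2 and Col15a1, all higher in the pool labelled VEGFR2i, against 2.19% of all genes in either direction and 1.82% as higher. Col4a2 and Col15a1 were thus called in both, 2 of the 3 in each comparison. Among all genes 41 were called higher in both, which was 37.3% of the 110 called higher in VEGF and 11.3% of the 363 called higher in VEGFR2i.

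The VEGF calls were all close to the size rule. Without the second control array none of the 44 collagens was called, beside 1.5% of all genes. Without the first VEGF array Col4a2 alone was, beside 1.56% of all genes. The explant calls held whichever array was left out, with 2.15% to 2.42% of all genes called.

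**Figure D1:**
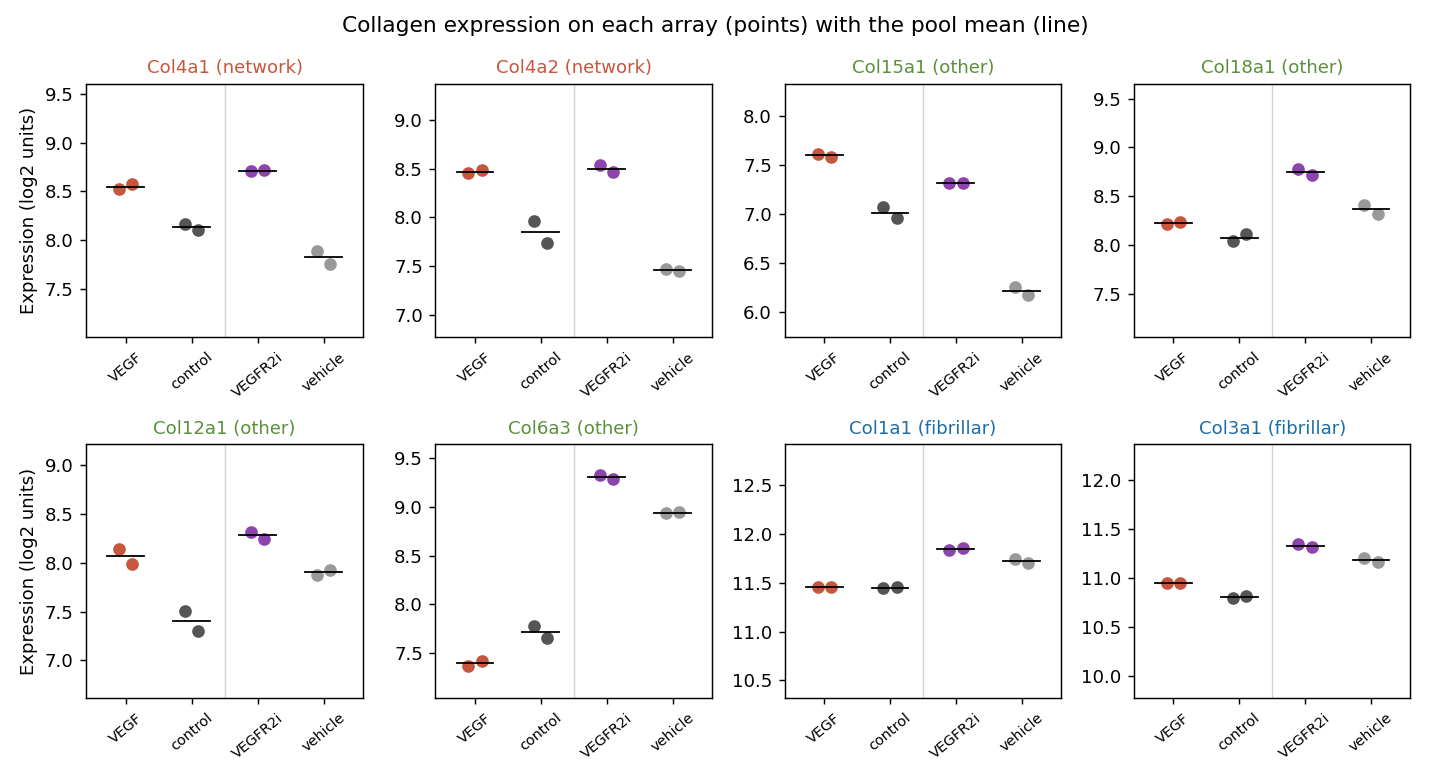
Log2 expression (vertical axis, each panel spanning the same 2.6 units) of 8 collagen genes on each array in the 4 pools (horizontal axis), with points for arrays and lines for pool means. Col4a1, Col4a2 and Col15a1 lay lowest in the vehicle pool, and Col1a1 had nearly the same value in the VEGF and control pools.

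Type IV collagen was described first. Col4a1 and Col4a2 encode the chains that join, into the type IV molecule found in nearly every basement membrane. Col4a2 (probe set 10570068) read 8.45 and 8.49 on the VEGF arrays, 7.97 and 7.74 on the control arrays, 8.54 and 8.46 on the VEGFR2i arrays and 7.47 and 7.46 on the vehicle arrays. The VEGF arrays lay above the control arrays and the VEGFR2i arrays above the vehicle arrays, with no overlap. Its difference was 0.62 [0.48, 0.75] in the fresh buds, a 1.53-fold level, and 1.04 [0.99, 1.08] in the explants, a 2.05-fold level.

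Col4a1 (probe set 10576973) read 8.52 and 8.57 on the VEGF arrays, 8.17 and 8.10 on the control arrays, 8.70 and 8.72 on the VEGFR2i arrays and 7.89 and 7.76 on the vehicle arrays. The order of the pools was the same as for its partner chain. Its difference was 0.41 [0.36, 0.47] in the fresh buds, which missed the size rule at 1.33-fold, and 0.89 [0.81, 0.96] or 1.85-fold in the explants. In both comparisons the range of differences over the array pairs lay lower for Col4a1 than for Col4a2.

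The genes of these chains lie head to head, and the reference sequence places their start sites 21 bases apart in a way that the transcripts overlap. RefSeq promoter windows (GRCm38.p6, 250 bases before to 50 after the start) were at hand for 35 of the 44 collagens, 38 windows in all, and the windows of Col4a1, chr8:11312777-11313076 on the minus strand, and Col4a2, chr8:11312555-11312854 on the plus strand, share 78 bases. No other pair of collagen genes had windows that overlap. The stretch of 22 bases from start to start is printed because both genes are called in the explants and share it. Beside it stand the 250 bases before the start of Col15a1, the third collagen called there, and those before the start of Col1a2, a fibrillar chain that was not called. Capitals mark the motifs searched for on both strands, which were the CCAAT box, the GC box (GGGCGG) and the TATA box (TATAAA).
Col4a2 start to Col4a1 start, chr8:11312805-11312826, plus strand: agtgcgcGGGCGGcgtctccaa
Col15a1, chr4:47207762-47208011, plus strand: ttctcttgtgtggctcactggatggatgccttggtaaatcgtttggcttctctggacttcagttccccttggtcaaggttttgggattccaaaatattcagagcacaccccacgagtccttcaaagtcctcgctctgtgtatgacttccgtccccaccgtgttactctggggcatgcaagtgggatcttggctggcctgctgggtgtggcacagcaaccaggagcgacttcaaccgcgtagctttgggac
Col1a2, chr6:4505368-4505617, plus strand: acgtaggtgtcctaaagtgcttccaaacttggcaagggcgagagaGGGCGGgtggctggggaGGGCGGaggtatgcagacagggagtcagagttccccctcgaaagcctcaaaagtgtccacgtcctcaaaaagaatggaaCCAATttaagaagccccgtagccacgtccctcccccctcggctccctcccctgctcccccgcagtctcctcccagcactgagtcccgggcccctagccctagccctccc

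The stretch between the type IV starts held 1 GGGCGG, a match to the GC box bound by Sp1 family factors. The Col1a2 sequence held 2 GGGCGG and 1 CCAAT, the box bound by NF-Y, and the Col15a1 sequence held none of the motifs. These counts are not comparable, since the type IV stretch has 22 bases and the others 250. The full windows of 300 bases held 1 CCAAT and 1 GGGCGG for Col4a1 and 1 CCAAT and 3 GGGCGG for Col4a2. They held 2 CCAAT and 2 GGGCGG for Col1a2 and none of the motifs for Col15a1. GGGCGG was found in 60.5% of the 38 collagen windows and in 35.7% of 32851 windows of all genes, CCAAT in 34.2% and 37.4%, and TATAAA in 13.2% and 13.6%, counting both strands. The median GC content was 59.8% for the collagen windows and 52.7% for all windows. These are matches of letters only.

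None of the remaining type IV chains was called. Col4a5 and Col4a6, whose chains form the type IV molecule of some epithelial and smooth muscle basement membranes, differed by 0.20 [0.18, 0.23] and 0.27 [0.07, 0.46] in the fresh buds and by -0.13 [-0.23, -0.03] and -0.06 [-0.18, 0.07] in the explants. Col4a5 read 5.51 and 5.49 in VEGF against 5.31 and 5.29 in control, and 5.995 and 6.05 in VEGFR2i against 6.09 and 6.22 in vehicle, so its arrays were apart in opposite directions in these comparisons. Col4a3 and Col4a4, chains known from the kidney glomerulus, lay between 3.65 and 3.95 on every array. They were below the median of all genes on all 8 arrays, as was Col4a6. Col4a3 differed by 0.02 in the fresh buds and -0.02 in the explants, and Col4a4 by -0.05 and -0.17.

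The short-chain network collagens form lattices such as those of vessel walls, the eye and cartilage. Col8a1, a chain of type VIII made by vascular and mesenchymal cells, read 7.25 and 7.20 in VEGF and 6.99 and 6.97 in control, a difference of 0.24 [0.21, 0.28]. It read 4.36 and 4.24 in VEGFR2i and 4.21 and 4.10 in vehicle, a difference of 0.14 [0.03, 0.26]. Neither comparison reached the size rule, though the arrays did not overlap. Col8a2 differed by -0.09 in both comparisons. Col10a1, the collagen of hypertrophic cartilage, lay between 3.19 and 3.39 on every array.

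As a class the 9 network collagens had a median difference of 0.20 in the fresh buds and -0.02 in the explants, against 0.00 and -0.00 over all genes. Of the 9, 5 lay above and 1 below without overlap of arrays in the fresh buds, and 3 above and 2 below in the explants. That was 66.7% in either direction in the fresh buds, against 45.3% of all genes, and 55.6% in the explants, against 51.0%. The sign of the explant median was not settled, since it ran from -0.02 to 0.06 with an array left out.

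Collagens XV and XVIII, the multiplexins, sit in or beside basement membranes and carry sugar chains, and their ends release the fragments restin and endostatin. Col15a1 (probe set 10504775) read 7.62 and 7.59 in VEGF, 7.07 and 6.96 in control, 7.32 and 7.32 in VEGFR2i and 6.25 and 6.17 in vehicle. The vehicle arrays stood lowest and no arrays of paired pools overlapped. The difference was 0.59 [0.52, 0.66] or 1.51-fold in the fresh buds and 1.11 [1.07, 1.15] or 2.16-fold in the explants, the largest among the collagens in the explants.

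Col18a1 read 8.22 and 8.23 in VEGF against 8.04 and 8.11 in control, and 8.77 and 8.72 in VEGFR2i against 8.41 and 8.32 in vehicle. It shared the order of the pools within each comparison with Col15a1 at a smaller size. Its difference was 0.15 [0.11, 0.19] in the fresh buds and 0.38 [0.31, 0.46] in the explants, short of the size rule in both.

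Endothelial markers differed in the same direction as these collagens in both comparisons, and whether vessel cells carry the collagen differences was not tested. In the fresh buds 4 of 10 endothelial markers were called higher in VEGF and none lower, all 10 differences being positive, from 0.40 to 0.75 with a median of 0.55. Those called were Kdr (0.75), Erg (0.67), Emcn (0.60) and Robo4 (0.59). The summed level of the list, on the linear scale, was 3382 to 3482 on the VEGF arrays and 2287 to 2320 on the control arrays. In the explants all 10 were called higher in the pool labelled VEGFR2i, with a median of 2.86 and a summed level of 1653 to 1746 against 218.1 to 219.5, and Emcn read 3.30 in vehicle. Differences there ran from 1.26 to 4.10, the largest being Cdh5 (4.10), Cd93 (3.96), Pecam1 (3.39) and Emcn (3.14). In pools of whole tissue, fewer cells of a type and less RNA per cell cannot be told apart. The vehicle pool, with the lowest endothelial sum, read 7.82 ± 0.09 for Col4a1 and 7.46 ± 0.01 for Col4a2 (SD, n = 2 arrays).

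Mural cells, which wrap vessels and make matrix, had 7 of 8 markers called higher in the pool labelled VEGFR2i, with a median of 0.85, a range from 0.54 to 1.26 and a summed level of 5861 to 5935 against 3567 to 3619. The largest were Rgs5 (1.26), Pdgfrb (1.15), Abcc9 (1.07) and Cspg4 (0.88). In the fresh buds no mural marker was called, the differences ran from -0.04 to 0.58 with a median of 0.12, the summed level was 3314 to 3322 against 2832 to 2887, and Myh11 read 4.11 in VEGF. All 6 leukocyte markers were also called higher in the pool labelled VEGFR2i (0.61 to 1.35, median 1.19, summed level 585 to 601 against 262 to 263), led by Laptm5 (1.35), Cybb (1.31), Mrc1 (1.28) and Adgre1 (1.09). None was called in the fresh buds (-0.22 to 0.25, median 0.07).

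Mesothelial markers, of the surface lining, had 4 of 6 called higher in VEGF (0.01 to 0.86, median 0.66, summed level 905 to 920 against 602 to 616), namely Upk1b (0.86), Bnc1 (0.76), Upk3b (0.73) and Lrrn4 (0.59). None was called in the explants (-0.03 to 0.35, median 0.17). Markers of the bud epithelium had 4 of 9 called lower in VEGF (-0.94 to -0.08, median -0.58, summed level 4152 to 4389 against 6949 to 6965), namely Nkx6-1 (-0.94), Cpa1 (-0.87), Sox9 (-0.70) and Cdh1 (-0.64). None was called in the explants (-0.58 to 0.04, median -0.15). All 5 erythroid markers measured were called higher in VEGF (0.93 to 1.72, median 1.13, summed level 2744 to 2822 against 1368 to 1384), led by Hbb-bh1 (1.72), Slc4a1 (1.37), Rhag (1.13) and Alas2 (1.015). Hba-x (1.62) was called higher in VEGFR2i, where the list ran from -0.05 to 1.62 with a median of 0.08. The part of all these cells in the collagen values was not tested.

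**Figure D2:**
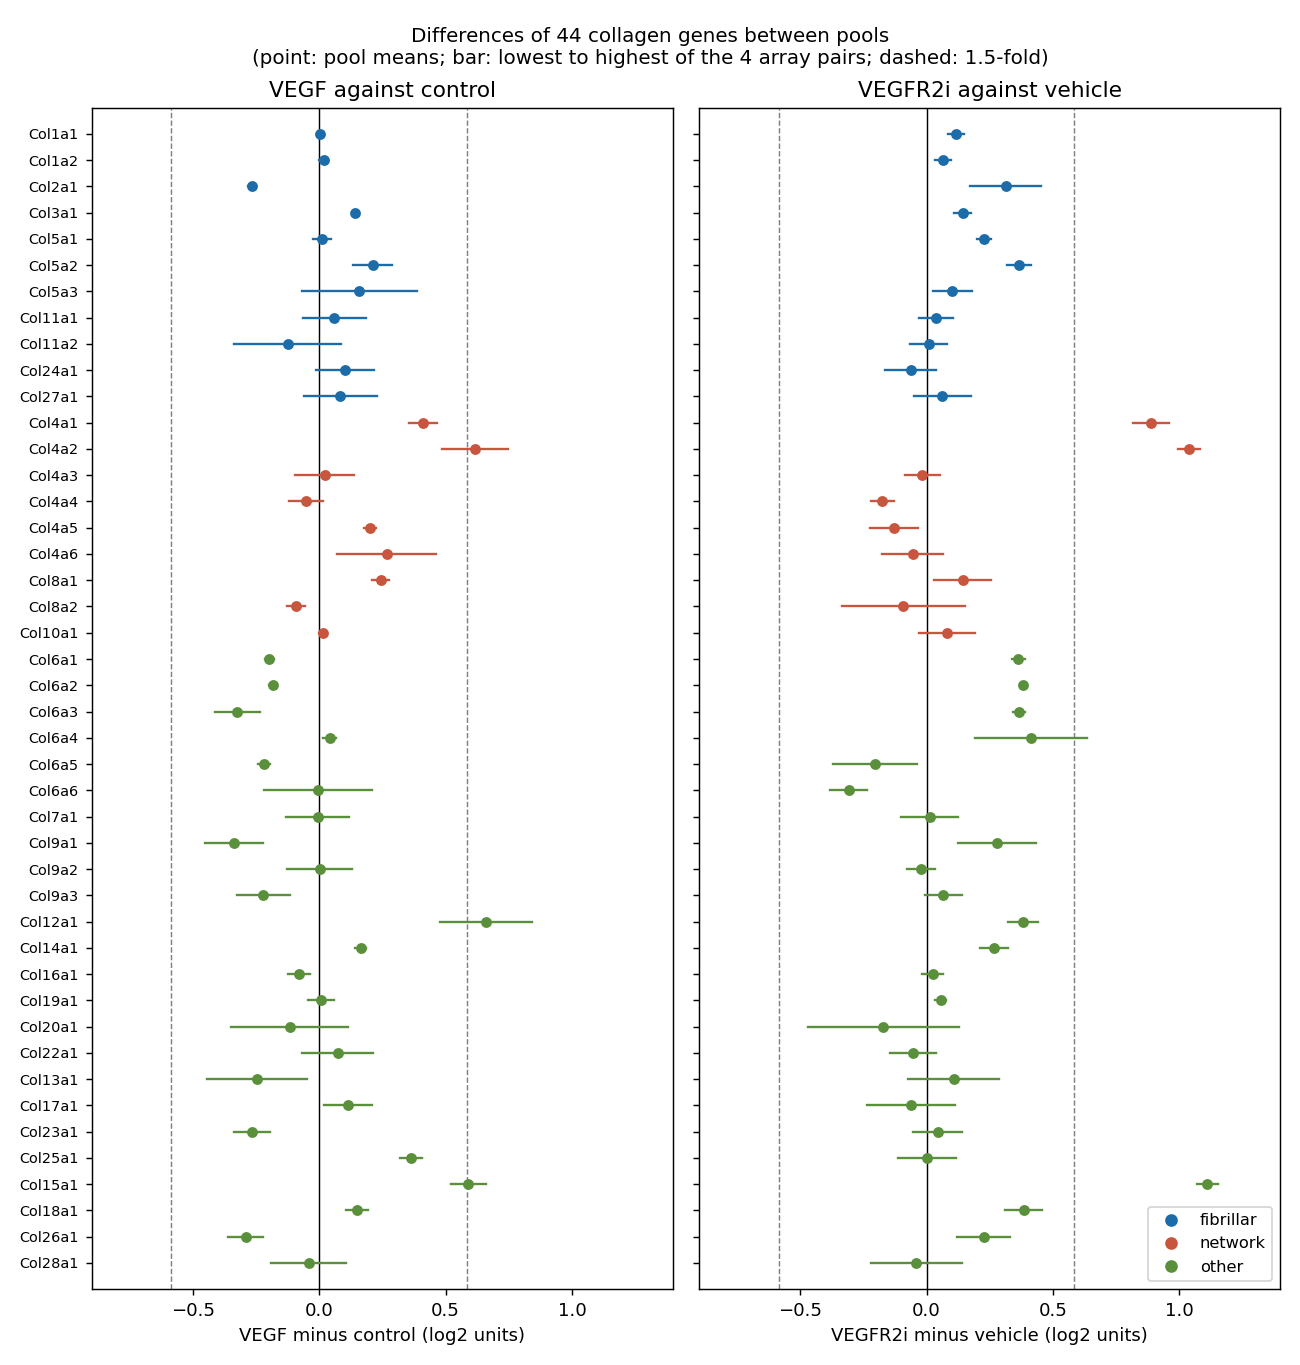
Difference between pool means in log2 units (horizontal axes) for all 44 collagen genes, coloured by class, with VEGF minus control on the left and VEGFR2i minus vehicle on the right. Points are pool means, bars run from the lowest to the highest of the 4 array pairs and dashed lines mark 1.5-fold. Col4a2 and Col15a1 lie past the upper line in both panels, and no collagen lies past the lower line.

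Fibrillar collagens differed between paired pools by less than the size rule. Differences below 0.2 made up 81.8% of them in the fresh buds and 72.7% in the explants, against 88.0% and 85.3% of all genes. None of the 11 was called in either comparison, beside 1.48% and 2.19% of all genes, shares at which 11 genes would often hold no call. Their median difference was 0.06 in the fresh buds, with a range from -0.26 to 0.21, and 0.10 in the explants, with a range from -0.06 to 0.37. In the explants 7 of the 11 lay above without overlap of arrays and none below, while 25.9% of all genes lay above and 25.0% below.

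Col1a1 and Col1a2, the chains of type I collagen and the main fibre of connective tissue, were nearly equal in the fresh buds. Col1a1 read 11.45 and 11.46 in VEGF and 11.45 and 11.45 in control, and its difference was 0.00 [-0.00, 0.01]. Col1a2 read 11.23 and 11.26 against 11.24 and 11.22, with a difference of 0.02 [-0.00, 0.04]. The arrays of both genes overlapped between these pools. In the explants the differences were 0.12 [0.09, 0.15] for Col1a1 and 0.07 [0.04, 0.10] for Col1a2, with all VEGFR2i arrays above the vehicle arrays by amounts far below 1.5-fold.

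Col3a1, the type III chain of reticular fibres, read 10.95 and 10.95 in VEGF, 10.80 and 10.82 in control, 11.35 and 11.31 in VEGFR2i and 11.21 and 11.17 in vehicle. Its difference was 0.14 in each comparison. Type V collagen sits inside type I fibrils and sets their thickness. Its chain Col5a2 differed by 0.21 [0.13, 0.29] in the fresh buds and 0.37 [0.32, 0.41] in the explants, the largest explant difference among fibrillar members, while Col5a1 differed by 0.01 and 0.23 and the dim Col5a3 by 0.16 and 0.10. Col5a2 lies next to Col3a1 in the genome.

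Col2a1, the fibril chain of cartilage and notochord that also marks some embryonic epithelia and mesenchyme, read 7.91 and 7.93 in VEGF, 8.19 and 8.18 in control, 6.80 and 6.93 in VEGFR2i and 6.63 and 6.48 in vehicle. It was the fibrillar member with the most negative difference in the fresh buds, -0.26 [-0.28, -0.25], and had a positive one in the explants, 0.31 [0.17, 0.45]. Of 6 cartilage markers, Hapln1 was called higher in VEGF (0.75) and none was called in the explants, with medians of -0.02 and -0.08 and ranges from -0.57 to 0.75 and from -0.23 to 0.03. The summed level was 229 to 238 in VEGF against 244 to 247 in control, and 204.5 to 207 in VEGFR2i against 217 to 219.5 in vehicle, and Matn1 read 3.09 in VEGF. Their part in the Col2a1 values was not tested. Col11a1, Col11a2, Col24a1 and Col27a1 had differences from -0.12 to 0.10 in the fresh buds and from -0.06 to 0.06 in the explants, with overlapping arrays in each case.

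Markers of mesenchyme, the main source of fibrillar collagen in most tissues, had 1 of 11 called lower in VEGF, Prrx1 with -0.77, and none higher (-0.77 to 0.41, median 0.12, summed level 2792 to 2856 against 2643 to 2680). In the explants Thy1 (1.23) and Postn (0.75) were called higher and none lower (-0.19 to 1.23, median 0.25, summed level 4232 to 4268 against 3711 to 3722). The other members of that list did not reach the size rule. Their part in the fibrillar values was not tested.

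Type VI collagen forms beaded filaments around cells from the chains of Col6a1, Col6a2 and Col6a3. These chains all differed in opposite directions between fresh buds and explants. Their differences were close to each other in the explants, while that of Col6a3 was the most negative in the fresh buds. Col6a1 read 7.81 and 7.78 in VEGF, 7.997 and 7.99 in control, 9.38 and 9.34 in VEGFR2i and 9.003 and 8.99 in vehicle. The arrays of paired pools did not overlap, with VEGF below control and VEGFR2i above vehicle.

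In the fresh buds the differences were -0.20 [-0.22, -0.18] for Col6a1, -0.18 [-0.20, -0.17] for Col6a2 and -0.32 [-0.41, -0.23] for Col6a3. In the explants they were 0.36 [0.34, 0.39], 0.38 [0.37, 0.39] and 0.37 [0.34, 0.39]. None reached the size rule. Separation of the arrays on its own is common here: 45.3% of all genes had arrays that did not overlap in the fresh buds, beside 26 of 44 collagens (59.1%), and 51.0% in the explants, beside 25 of 44 (56.8%).

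The further type VI genes, Col6a4, Col6a5 and Col6a6, lie in a row in the genome and can stand in for the third chain. Each had the direction of the main chains in at most 1 comparison with its arrays apart, Col6a4 in the explants and Col6a5 in the fresh buds. Col6a4 differed by 0.04 in the fresh buds and 0.41 [0.19, 0.63] in the explants, Col6a5 by -0.22 and -0.20, and Col6a6 by -0.01 and -0.31 [-0.38, -0.24]. The second probe sets gave -0.05 and -0.31 for Col6a6 and 0.04 and -0.24 for Col6a5.

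Fibril-associated collagens lie on the surface of fibrils and link them to other matrix. Col12a1 (probe set 10595211), found in dense connective tissue and in tissue under tension, read 8.15 and 7.99 in VEGF, 7.51 and 7.30 in control, 8.32 and 8.25 in VEGFR2i and 7.88 and 7.92 in vehicle. Its difference in the fresh buds was the largest of the collagens there, 0.66 [0.48, 0.84] or 1.58-fold, with a spread between arrays of one pool of up to 0.15 (SD). In the explants it was 0.38 [0.32, 0.44], short of the size rule.

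Col14a1, a related chain of embryonic mesenchyme, differed by 0.16 [0.14, 0.19] in the fresh buds and 0.27 [0.21, 0.32] in the explants. It read 9.68 and 9.64 in VEGF, 9.49 and 9.50 in control, 8.16 and 8.22 in VEGFR2i and 7.95 and 7.90 in vehicle, so its larger contrast was between fresh and cultured buds.

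The 14 other members not yet given (Col7a1, Col9a1, Col9a2, Col9a3, Col13a1, Col16a1, Col17a1, Col19a1, Col20a1, Col22a1, Col23a1, Col25a1, Col26a1 and Col28a1) had a median difference of -0.06 in the fresh buds and 0.02 in the explants. They ran from -0.34 for Col9a1, a chain of the cartilage collagen IX, to 0.36 for Col25a1, a transmembrane collagen of neurons, in the fresh buds. In the explants they ran from -0.17 for Col20a1 to 0.28 for Col9a1. The 24 members of the third class together had medians of -0.02 and 0.06, neither with a settled sign: with an array left out they ran from -0.14 (without the second VEGF array) to 0.0537 (without the first), and from -0.0024 (without the second VEGFR2i array) to 0.13 (without the first). Below the median of all genes on all 8 arrays lay 12 of the 44 collagens (2 fibrillar, 4 network and 6 other), beside 45.9% of all genes, and for such dim members a small difference carries little information.

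Across all 44 collagens the median difference was 0.01 in the fresh buds, with 26 positive (59.1%, against 51.6% of all genes), and 0.07 in the explants, with 31 positive (70.5%, against 48.1%). In each comparison 27 of the 44 differed by less than 0.2 (61.4%), against 88.0% of all genes in the fresh buds and 85.3% in the explants.

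Gene order in RefSeq placed 15 members in 8 neighbouring pairs with no other protein-coding gene between them. Beside the pairs already named these were Col4a3 with Col4a4, Col4a5 with Col4a6, Col6a1 with Col6a2 and Col9a1 with Col19a1. The gap between the differences of neighbours ran from 0.01 for Col6a1 and Col6a2 to 0.34 for Col9a1 and Col19a1 in the fresh buds, and from 0.02 for Col6a1 and Col6a2 to 0.62 for Col6a4 and Col6a5 in the explants. For Col4a1 and Col4a2 it was 0.20 and 0.15.

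Levels of fresh and cultured buds were set side by side as a description only, since the sets differ in array medians and may have been normalized separately. Over all genes the vehicle pool lay above the control pool by a median of 0.17, and over the collagens by 0.23. In 3 collagens, Col6a3, Col6a4 and Col6a6, all explant arrays lay more than 1 above all fresh arrays (6.82%, against 5.07% of all genes), and in 2, Col8a1 and Col14a1, all fresh arrays lay more than 1 above all explant arrays (4.55%, against 0.617%).

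Col6a6 showed the widest gap upward, with fresh arrays from 5.00 to 5.30 and explant arrays from 7.60 to 7.98. Col8a1 showed the widest gap the other way, from 6.97 to 7.25 in fresh and from 4.10 to 4.36 in explant arrays. Col6a1 (7.78 to 7.997 fresh, 8.99 to 9.38 explant) and Col6a2 (7.40 to 7.60, 8.55 to 8.94) lay just under that size, as did Col2a1 in the other direction (7.91 to 8.19, 6.48 to 6.93). Col1a1, Col1a2 and Col3a1 were 0.27, 0.40 and 0.38 higher in vehicle than in control. Col4a1, Col4a2 and Col15a1 were lower in vehicle than in control, by differences of -0.31, -0.39 and -0.81, whereas the pool labelled VEGFR2i differed from VEGF by 0.17, 0.03 and -0.285.

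**Figure D3:**
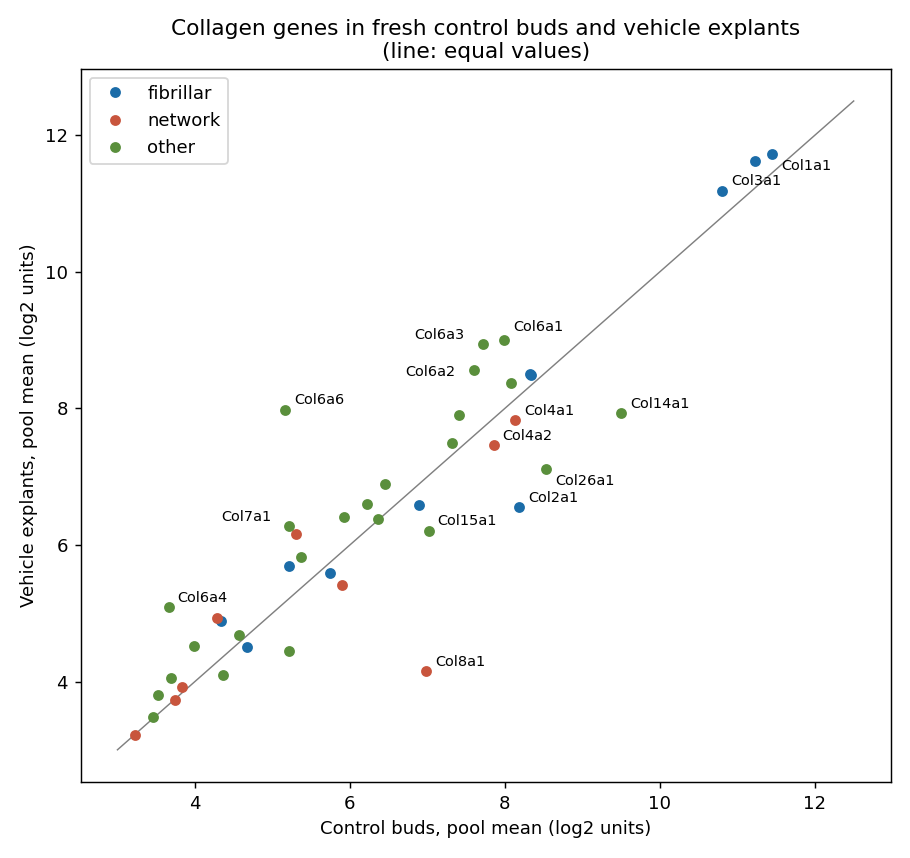
Pool mean of each of the 44 collagen genes in log2 units in control buds (horizontal axis) and vehicle explants (vertical axis), coloured by class, with a line of equal values. Each point is to be read against the line, since levels of different genes are not comparable; Col6a6 lies farthest above it and Col8a1 farthest below.

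Genes that make, process, bind or degrade collagen were counted as well, 49 measured of 54 listed. In the fresh buds 1 was called higher and none lower (2.04%, against 1.48% of all genes), with a median of 0.08. In the explants 7 were called higher in the pool labelled VEGFR2i and none lower (14.3%, against 2.19% of all genes), with a median of 0.15. The called genes were mainly receptors, proteases and protease inhibitors, and the enzymes that build the chains had 1 call in all.

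Of 15 genes that hydroxylate and glycosylate collagen chains, none was called in the fresh buds (median 0.18) and P3h2, a prolyl 3-hydroxylase known to act on type IV collagen, was called higher in the explants. P3h2 read 5.05 ± 0.14 with the label VEGFR2i and 4.36 ± 0.20 with the label vehicle (SD, n = 2 arrays). The difference was 0.69 [0.45, 0.93], but these were dim readings, below the median of all genes on every explant array. In VEGF and control P3h2 read 7.30 and 7.04. None of 12 genes of folding, export and propeptide removal was called in either comparison (medians 0.10 and 0.03). The collagen chaperone Serpinh1 differed by 0.24 and 0.21, and Pcolce, which speeds removal of the propeptide, by 0.40 and 0.47. Of the lysyl oxidases, which crosslink collagen, 4 were measured and none was called (medians 0.12 and 0.16). Lox itself differed by -0.06 and -0.07.

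Among 9 collagen receptors, Itga1, the integrin chain that pairs with Itgb1 to bind type IV collagen, was called in both comparisons. It was at 6.54 ± 0.09 in VEGF and 5.80 ± 0.23 in control, a difference of 0.75 [0.52, 0.97], and at 6.70 ± 0.08 in VEGFR2i and 5.67 ± 0.14 in vehicle, a difference of 1.02 [0.87, 1.18]. Itga2, a receptor chain for fibrillar collagen, was called in the explants, with 1.45 [1.37, 1.53], and differed by 0.41 [0.32, 0.50] in the fresh buds. The receptor tyrosine kinases Ddr1 and Ddr2 were not called, with -0.03 and -0.10 in the fresh buds and -0.03 and 0.45 in the explants. The medians of the receptors were -0.03 and 0.39.

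Of 9 genes of collagen breakdown and its inhibitors, none was called in the fresh buds and 4 were called higher in the explants. Mmp9, a gelatinase, differed by 1.09, Ctsk, a collagen-cutting protease, by 0.74, and the protease inhibitors Timp1 and Timp3 by 0.74 each. Mmp9 and Ctsk are also expressed by leukocyte lineage cells, whose markers are given above. The part of those cells in the values was not tested. In the fresh buds Mmp9, Ctsk, Timp1 and Timp3 differed by 0.46, -0.40, 0.21 and 0.05. The medians of the list were 0.05 and 0.36.

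**Figure D4:**
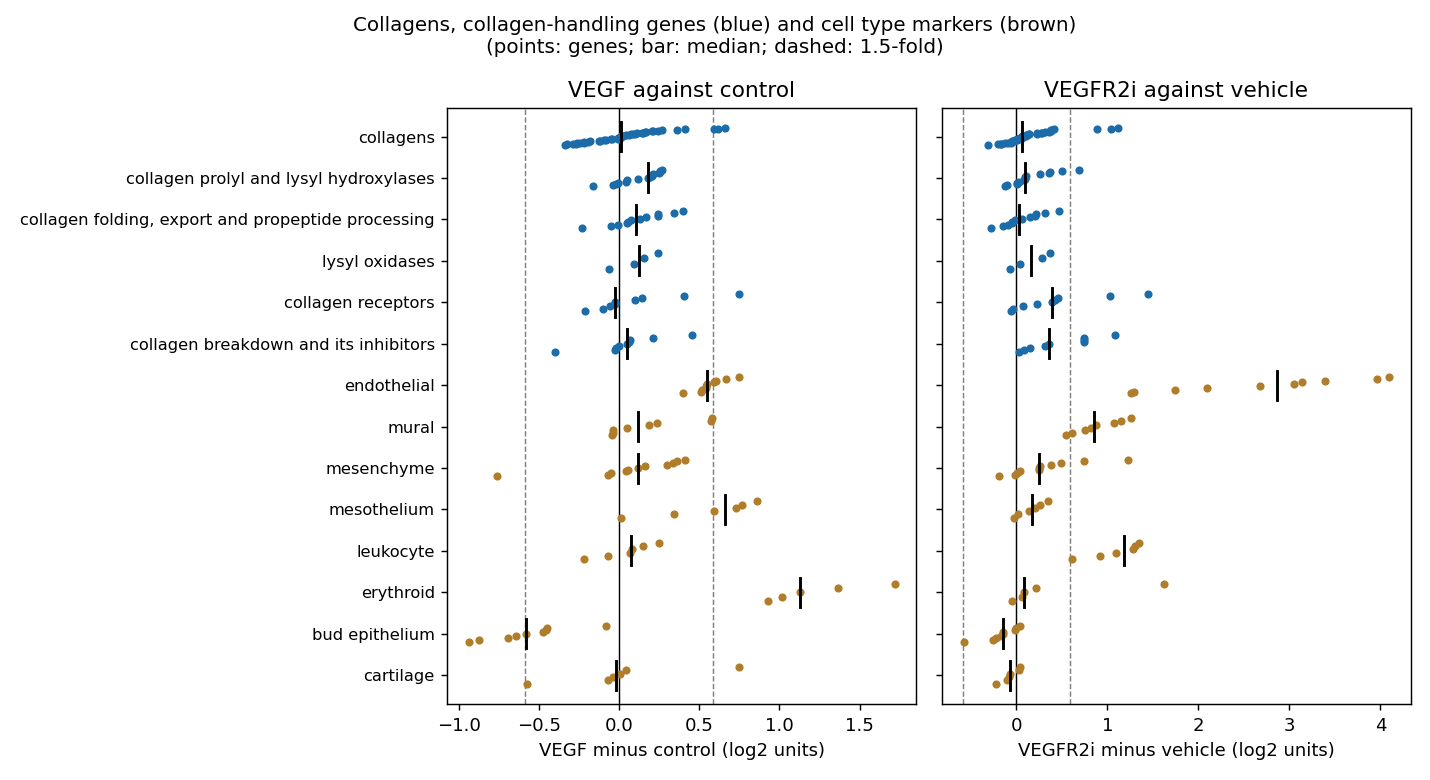
Differences in log2 units (horizontal axes) of the collagens, 5 lists of collagen-handling genes (blue) and 8 lists of cell type markers (brown), with VEGF minus control on the left and VEGFR2i minus vehicle on the right, on different scales. Points are genes, black bars are medians and dashed lines mark 1.5-fold. The endothelial list has a median of 0.55 on the left and 2.86 on the right, while the collagens have medians of 0.01 and 0.07.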

How the data were processed

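RNA from 4 pools was hybridized to 2 Affymetrix arrays each. Each probe set has a deposited log2 value, made by the authors with RMA (robust multi-array averaging), for which Partek Genomic Suite 6.5 served, according to the submitters' processing notes and design text. No source used here states the scale, and log2 was inferred from the range of 2.41 to 13.57. Such averaging compresses differences of dim genes. Array medians were 4.08 to 4.12 for fresh buds and 4.29 to 4.33 for explants. Of 35399 probe sets, 21789 had 1 symbol in the platform annotation, and 1621 with several were left out.

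Differences, ranges and counts were computed in Python 3.11.15 with pandas 2.3.3 and numpy 2.4.6. The size rule was run on simulated data with planted 2-fold changes and technical error alone. That run cannot speak for calls near 1.5-fold or for variation between embryos. The number of arrays limits the precision. Promoter sequences and gene order came from RefSeq (GRCm38.p6), and all 44 gene IDs matched.

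Named were all fibrillar and network members, called members, and types VI, XII, XIV, XV and XVIII; of each gene list the called members, at most 4 by size of difference in a comparison, and of marker lists the range. Serpinh1, Pcolce, Lox, Ddr1, Ddr2, Myh11, Matn1, Pdx1 and Ptf1a, and of the other collagens Col9a1, Col19a1, Col20a1 and Col25a1, were added after their values were seen. The members and lists were chosen with earlier results of these data known. Adamts2, Fkbp10, Loxl2, Gp6 and Mmp15 had no singly named probe set under that symbol and were not analysed here. Bapx1 is an older name of Nkx3-2, and that gene was counted once. Alternatives were other folds, a filter on dim genes, other normalizations, each array left out and the methods' t-test.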

Additional observations from a re-analysis of the deposited data

How the results depend on the processing

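In the fresh buds the count of called collagens was 3 and became 0 at 2-fold (0.251% of all genes). At the smallest fold tried it was 7 (5.17%), of which 2, Col6a3 and Col9a1, were lower in VEGF. When the 8 arrays were quantile normalized together it was 2 (Col4a2 and Col12a1), beside 1.5% of all genes. With an array left out it ran from 0 to 3. It was 0 without the second control array (1.5% of all genes) and 1 without the first VEGF array (1.56%). It was 3 without the first control array (1.58%) or the second VEGF array (1.69%). In the explants the count of 3 became 2 at 2-fold (0.667% of all genes) and 10 at that smallest fold (6.29%). It was 3 whichever array was left out, with 2.15% to 2.42% of all genes called. The methods' t-test on the arrays measures hybridization error and not the conditions. Genes were counted when they had p below 0.05 and pool means at least 1.5-fold apart. Without adjustment 3 collagens passed both cuts in each comparison, beside 271 and 405 of all genes. After Benjamini-Hochberg adjustment 0 collagens passed both in each comparison, beside 0 and 1 of all genes. A filter on dim genes, probe set means and median centring left both counts at 3. Under the filter 2.56% and 3.64% of the genes kept were called. The shares of all genes were 1.49% and 2.18% with probe set means and 1.45% and 2.25% with median centring.

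With an array left out, the class medians in the fresh buds ran from 0.001 to 0.0373 (fibrillar), 0.13 to 0.21 (network) and -0.14 to 0.0537 (other), and in the explants from 0.06 to 0.13, -0.02 to 0.06 and -0.00 to 0.13, so the sign was not settled for the third class in either comparison, nor for the network class in the explants. All 42 values of the called collagens under an alternative kept their sign, which the size rule largely fixed in advance. A call requires arrays that do not overlap, so leaving an array out could not reverse it. No called collagen had a second probe set, so probe set means could not change it either. The cause of the shifts in the medians was not tested. No paired analysis was possible because the labels give the arrays no replicate numbers that pair pools.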
